A study of Mus musculus with 209 samples.

Results

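The IL17 program of gamma-delta T cells is described here through 7 genes: the cytokines Il17a and Il17f, the receptor chains Il17re and Il23r, the chemokine receptor Ccr6, the kinase Blk and the transcription factor Maf. They were chosen by name, as genes that mark IL17-producing gamma-delta T cells, and are 7 of the 55011 gene symbols counted. Earlier results of these data were known at that choice, so counts of members called are description only. The libraries of main interest are the 14 of spleen gamma-delta T cells (Tgd), with 3 libraries after IL1b, 3 after IL6, 3 after TNFa and 5 after PBS. C57BL/6 mice aged 5 to 8 weeks received 5 µg of 1 cytokine in 120 µL of PBS by vein, or PBS alone, and were sampled 2 h later. Each library was made from 1000 cells sorted 2 times, and the labels give no genotype beyond the strain for any group. The other 13 cell types, with 169 libraries of the same screen, served as background and are called by their labels. Among lymphocytes these are T.4 and T.8 (T cells with CD4 or CD8), Treg (regulatory T cells), NK cells, and the B cell types B.fo (follicular) and MZB (marginal zone). The myeloid types are Mo.6C+ (monocytes with Ly6C), MFrp and MFpc (macrophages of the red pulp and of the peritoneal cavity), GN (neutrophils), MC (mast cells), and the dendritic cells pDC and DC.8+.

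Some gamma-delta T cells leave the thymus already committed to making IL17, which recruits neutrophils and acts on epithelia. They carry the transcription factors Sox13 and c-Maf, and they answer IL1b and IL23 quickly, without stimulation of the antigen receptor. IL17A and IL17F signal through IL17RA with IL17RC, whereas IL17RE is the partner of IL17RA for IL17C. In mice, many such cells use the Vg6 segment (Trgv6) and carry the scavenger receptor Cd163l1.

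Il17a and Il17f lie 42649 bases apart on chromosome 1, and Il17re lies on chromosome 6 (GRCm38, GENCODE vM21 annotation). The RefSeq promoter windows of GRCm38.p6, from 250 bases before to 50 bases after the start of transcription, are printed for these 3 genes: the neighbouring pair of cytokine genes, of which 1 was raised by IL1b, and the receptor gene that was lowered. They are written 5′ to 3′ along the gene's strand, and capitals mark matches to the motifs searched.
Il17a, chr1:20730655-20730954, plus strand: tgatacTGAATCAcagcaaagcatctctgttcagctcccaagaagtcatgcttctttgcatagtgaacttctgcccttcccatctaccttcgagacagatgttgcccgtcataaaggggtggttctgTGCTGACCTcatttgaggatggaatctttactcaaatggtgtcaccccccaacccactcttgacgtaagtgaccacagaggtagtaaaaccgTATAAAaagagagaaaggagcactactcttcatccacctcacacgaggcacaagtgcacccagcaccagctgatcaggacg
Il17f, chr1:20784221-20784520, minus strand: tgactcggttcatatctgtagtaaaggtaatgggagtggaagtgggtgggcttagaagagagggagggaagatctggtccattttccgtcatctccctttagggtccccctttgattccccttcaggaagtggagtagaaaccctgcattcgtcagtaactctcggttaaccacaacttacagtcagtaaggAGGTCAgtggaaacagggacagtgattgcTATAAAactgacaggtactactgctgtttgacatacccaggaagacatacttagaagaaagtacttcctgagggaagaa
Il17re, chr6:113458521-113458820, plus strand: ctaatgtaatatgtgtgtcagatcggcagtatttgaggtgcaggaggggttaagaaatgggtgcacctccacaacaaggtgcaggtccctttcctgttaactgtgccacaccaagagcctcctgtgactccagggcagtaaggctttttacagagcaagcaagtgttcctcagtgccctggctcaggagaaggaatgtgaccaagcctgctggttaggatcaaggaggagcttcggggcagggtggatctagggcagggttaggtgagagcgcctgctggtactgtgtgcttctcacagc
The motifs, searched on both strands, were the nuclear receptor half-site AGGTCA, the Maf half-site TGCTGA, the AP-1 site TGANTCA, the STAT palindrome TTCNNNGAA, the TATA box TATAAA and the NF-kB consensus. Of all 32851 RefSeq windows of this length, 16.3% held the nuclear receptor half-site, 19.5% the Maf half-site, 7.81% the AP-1 site, 8.30% the STAT palindrome, 13.6% the TATA box and 8.46% the NF-kB consensus. The nuclear receptor half-site stood at position -120 in Il17a, where it overlapped a Maf half-site that began at -123, and at -58 in Il17f. Il17a also held the AP-1 site at -244, and both cytokine genes held a TATA box, at -31 in Il17a and -29 in Il17f. None of the 6 motifs matched in the Il17re window. The GENCODE genes of Il17f and Il17re begin outside these windows, at chr1:20790617 (minus strand) and chr6:113458484. Those starts were not searched. Windows were found for 5 of the 7 genes. That of Il23r held nuclear receptor half-sites at -229 and -66 and a Maf half-site at -54. The first of 2 for Ccr6 held a nuclear receptor half-site at -44, STAT palindromes at -157 and -120, and Maf half-sites at -239 and -193. The second held the NF-kB consensus in overlapping matches at -81 and -80. These matches are letters in a window and say nothing of binding.

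All levels below are CPM, read counts scaled to a common library size with trimmed-mean (TMM) factors over the 183 screen libraries. The 14 Tgd libraries held 3037824 to 5452296 counts, within the 1094567 to 9291121 of the whole series. Trdc, the constant segment of the delta chain, stood at 935 to 1345 CPM in all 14, and all 8 gamma-delta T cell markers were detected in each group. Cd4 stood at 0 to 18.5 CPM, but the 5 CD4 T cell markers, with Trac, Trbc1 and Trbc2 among them, summed to 908 to 1181 CPM. The 4 regulatory T cell markers summed to 203 to 378 CPM over the 14 libraries. Among them, Foxp3 stood at 0 to 6.78 CPM and Il2ra at 26.2 to 137 CPM. Some departures touch the genes described. Tgd IL1b library 1 carried the B cell gene Cd79a at 28.3 CPM, against at most 1.99 CPM in the other 13 libraries. PBS libraries 1 and 4 carried the most Trgv6 (60.5 and 120.3 CPM, against 9.88 to 12.5 CPM in the other PBS libraries) and the most Cd163l1 (940 and 1248 CPM, against 202 to 320 CPM). The summed level of 7 NK cell markers was 354 to 504 CPM with IL1b, 166 to 243 CPM with IL6, 260 to 332 CPM with TNFa and 193 to 264 CPM with PBS, with Klra8 at 0 in the cytokine groups. In sorted populations measured in bulk, fewer cells of a type and less RNA per cell cannot be told apart. The labels do not say that libraries of a group came from separate mice, so p-values measure the spread between libraries, which may be technical.

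With PBS, Il17re and Il23r were most abundant in Tgd, Blk and Ccr6 were shared with B cells, and Maf was shared with macrophages and Treg. Il17re averaged 49.8 ± 17.6 CPM in Tgd (SD, n = 5), and its lowest Tgd library, at 35.3 CPM, lay above the highest library of T.8, the next type, at 7.25 CPM. Il23r, the IL23-specific receptor chain, averaged 29.8 ± 16.2 CPM in Tgd, with a lowest library of 11.1 CPM against a highest of 7.03 CPM in T.8. Every neighbouring pair below T.8 overlapped for both receptor chains, and MC held no count of either in 4 libraries.

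Ccr6, which guides cells along gradients of CCL20, averaged 33.5 ± 13.9 CPM in Tgd, below B.fo and MZB. B.fo stood first at 87.7 ± 17.3 CPM and did not overlap MZB at 47.0 ± 17.9 CPM, while MZB, Tgd and Treg (19.0 ± 7.32 CPM) overlapped from neighbour to neighbour. Blk, a Src family kinase best known in B cells, averaged 132 ± 105 CPM in Tgd, after MZB at 767 ± 58.7 CPM and B.fo at 361 ± 21.7 CPM, with no overlap between these neighbours. The Tgd libraries overlapped those of pDC (40.0 ± 19.8 CPM), which did not overlap the types below. Maf averaged 38.6 ± 18.7 CPM in Tgd and overlapped MFpc at 42.1 ± 5.36 CPM, which overlapped Treg at 42.9 ± 5.71 CPM; MFrp stood above them at 132 ± 40.0 CPM, and Mo.6C+ lay below Tgd without overlap, at 12.7 ± 2.12 CPM (SD; n = 5 for each type here except MZB, n = 4). Per kilobase of annotated exon, the mean Tgd levels with PBS ran from Blk at 48.8 CPM per kb over Ccr6 at 14.4, Il23r at 11.96 and Il17re at 8.49 down to Maf at 4.69 CPM per kb.

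**Figure D1:**
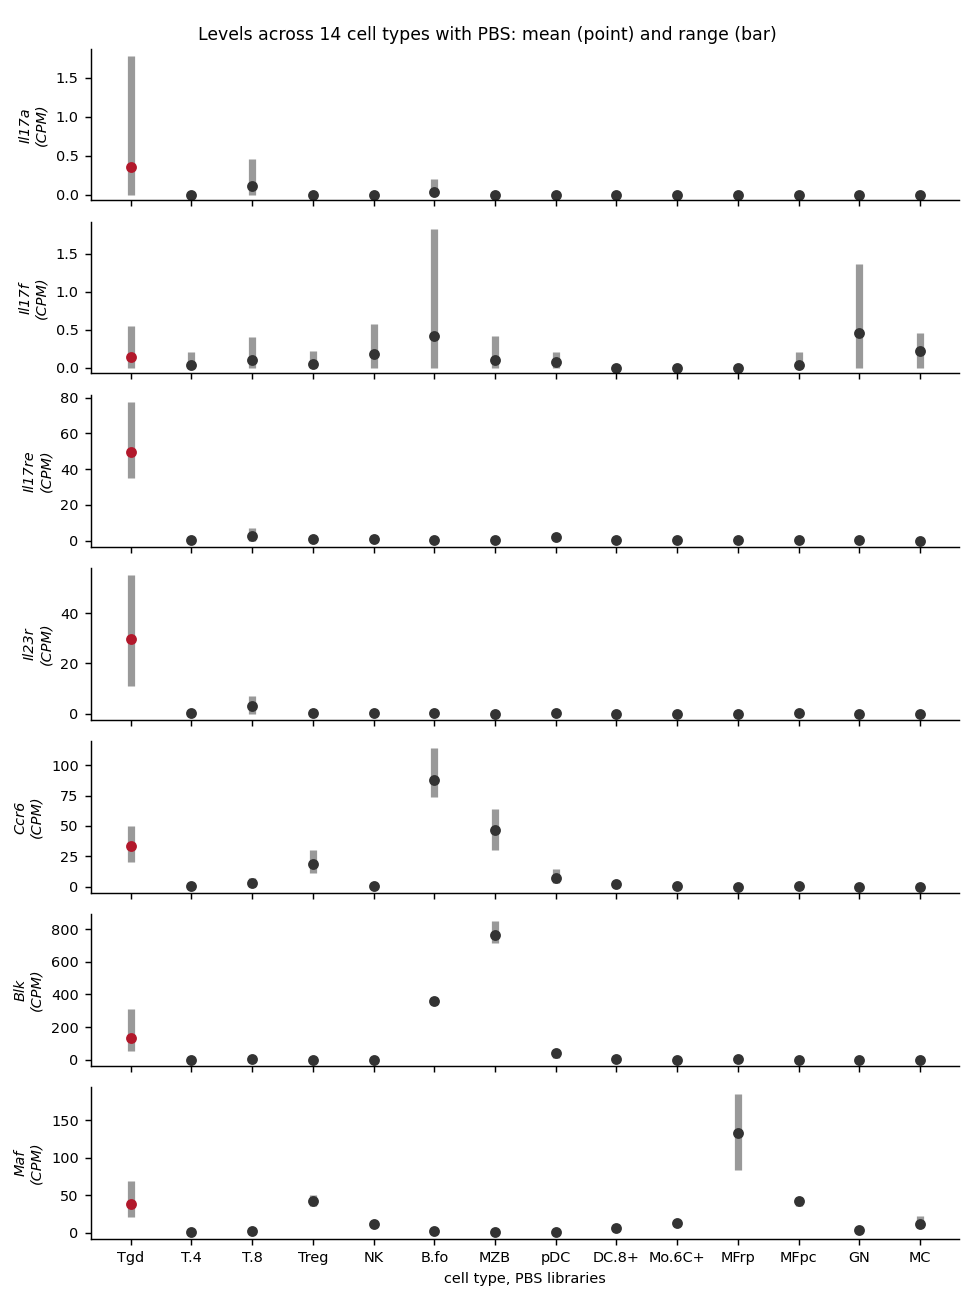
Levels of the 7 genes with PBS (CPM, vertical axes, linear) in 14 cell types (horizontal axis), points showing the mean and bars the range over 4 or 5 libraries. Il17re and Il23r stand out in Tgd, Blk and Ccr6 are higher in B.fo and MZB, Maf is highest in MFrp, and Il17a and Il17f stay under 2 CPM in every library, on axes that differ between genes.

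Both cytokine genes were close to absent with PBS. Il17a had 12 counts in Tgd PBS library 4 (1.78 CPM) and none in the other 4 PBS libraries. Il17f had 4 counts over the 5 Tgd PBS libraries, 0 to 0.544 CPM, and was no higher there than in GN (0.452 ± 0.640 CPM, n = 5) or B.fo (0.424 ± 0.792 CPM, n = 5), whose ranges overlapped that of Tgd. Neither passed the filter on low counts of the PBS comparison between cell types.

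The PBS libraries of Tgd were set against those of 4 other lymphocyte types in 1 edgeR quasi-likelihood fit with 17153 genes. Of the 7 members, 5 could be tested. Il23r and Il17re could pass the filter on low counts through the Tgd libraries, where they were highest. Their counts among the tested members are therefore not independent of their differences. Against T.4 and against NK, all 5 were higher in Tgd, where 13.9% of genes were called in the T.4 comparison and 17% in the NK comparison. Blk had the largest difference from T.4, a log2 fold change of 8.16 ± 0.76 (SE; adjusted p = 8.8e-13), and Maf the smallest difference from NK, 1.68 ± 0.42 (adjusted p = 0.0021; 0.075 without PBS libraries 1 and 4). Against Treg, where 10.3% of genes were called, Blk (8.76 ± 0.80), Il23r (6.03 ± 1.18) and Il17re (5.99 ± 1.05) were higher in Tgd. Ccr6 at 0.80 ± 0.65 (adjusted p = 0.56) and Maf at -0.17 ± 0.40 (adjusted p = 0.90) did not pass. Against B.fo, where 28.1% of genes were called, Il17re (8.22 ± 1.25), Il23r (6.06, SE 1.195) and Maf (4.36 ± 0.51) were higher in Tgd and Blk was lower (-1.51 ± 0.46, adjusted p = 0.0088; SE throughout), while Ccr6 at -1.44 ± 0.65 missed the threshold of 0.05 (adjusted p = 0.095). With DESeq2, Blk against B.fo (adjusted p = 0.22) and Il23r against Treg (0.17), NK (0.054) and B.fo (0.092) did not pass.

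The 3 cytokines were then compared with PBS within Tgd, all against the same 5 PBS libraries, in 1 fit with 13616 genes. IL1b raised Il17f and lowered Il17re, and IL6 moved no member past the threshold. TNFa raised Il17f, in a call that rested on TNFa library 3 and was lost without it. 6 members passed the filter; Il17a did not, and Il17f passed through the cytokine libraries in which it was high, so that its count among the tested members is not independent of its change.

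Il17f, the cytokine gene, had 65.2, 29.1 and 21.9 CPM in the 3 Tgd libraries with IL1b, 0.157, 0 and 1.21 CPM with IL6, 0, 1.76 and 16.4 CPM with TNFa, and 0, 0.154, 0, 0 and 0.544 CPM with PBS. All 3 IL1b libraries lay above every other Tgd library, while the TNFa libraries spread from none to a level near the lowest IL1b library. With IL1b the log2 fold change was 8.00 ± 1.14 (SE; edgeR adjusted p = 4.5e-04), and in the alternatives it ran from 7.25 without PBS libraries 1 and 4 to 9.54. With TNFa it was 5.30 ± 1.18 (adjusted p = 0.014), and this call rested on TNFa library 3, which held 75 of the 86 counts: without it the log2 fold change was 2.59 ± 1.21 (adjusted p = 0.39), and without PBS libraries 1 and 4 the adjusted p was 0.10. TNFa library 3 was also the highest in Ifng, the type 1 cytokine gene, at 19.6 CPM against 0 to 6.50 CPM in the other 13 libraries. Between IL1b and TNFa, Il17f differed by a log2 fold change of 2.698 (SE 0.97), which did not pass (adjusted p = 0.55). Per kilobase of exon, its mean with IL1b was 19.2 CPM per kb. At the share of B cell markers found in IL1b library 1, which was 1.86% of their level in B.fo with IL1b, B.fo would contribute 0.00877 CPM of Il17f.

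Il17a, its neighbour, had 13, 1 and 0 counts in the IL1b libraries, no count in the 3 IL6 and the 3 TNFa libraries, and 12 counts in 1 of 5 PBS libraries. The highest IL1b and the highest PBS library held about as much, 1.94 and 1.78 CPM. A group of 3 Tgd libraries with no count allows a mean of up to 0.238 CPM for IL6 and 0.228 CPM for TNFa (3 counts over the group, counting error only), against a PBS mean of 0.355 CPM.

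**Figure D2:**
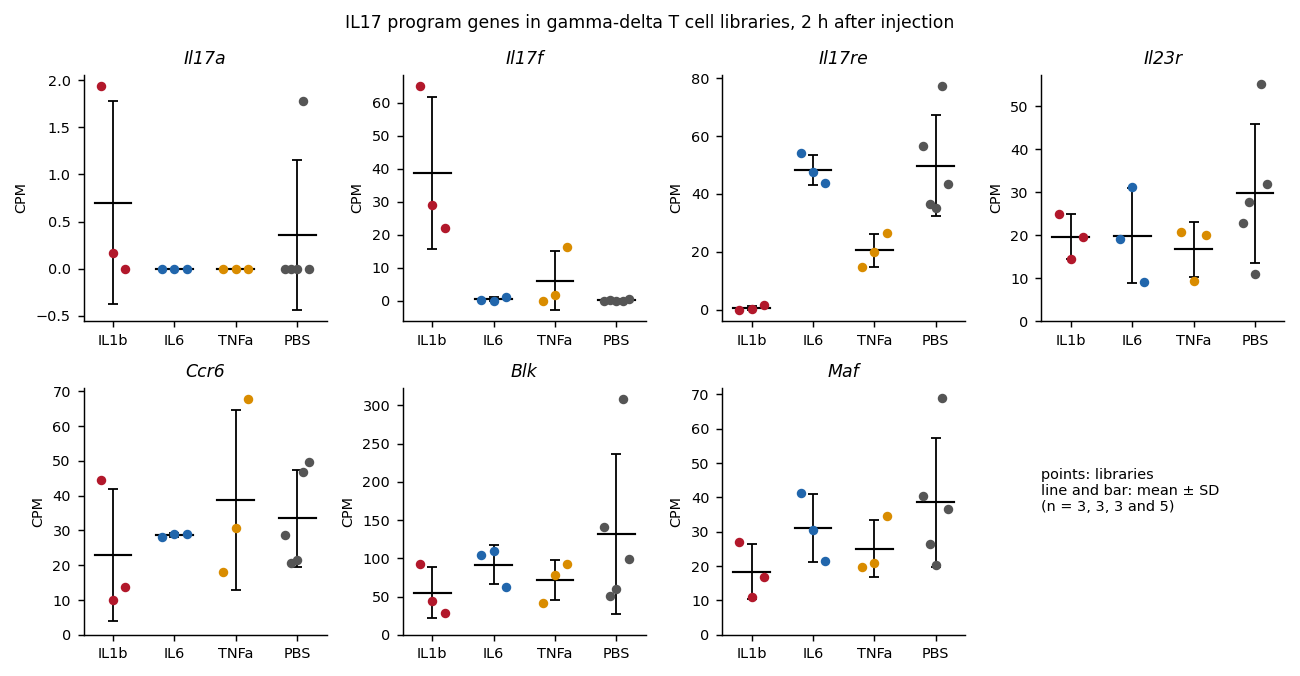
CPM (vertical axes, linear) of the 7 genes in each Tgd library (points) after IL1b, IL6, TNFa or PBS, with the mean and SD of 3, 3, 3 and 5 libraries. Il17f is high in the 3 IL1b libraries (21.9 to 65.2 CPM) and Il17re is at 0 to 1.52 CPM in them, while the groups overlap for Il23r, Ccr6, Blk and Maf.

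Il17re, the receptor chain for IL17C, had 0, 0.331 and 1.52 CPM with IL1b, 54.0, 47.5 and 43.8 CPM with IL6, 14.9, 20.1 and 26.4 CPM with TNFa, and 56.5, 36.4, 35.3, 77.4 and 43.5 CPM with PBS. The IL1b libraries lay far below all others, the TNFa libraries lay between, below every PBS library, and the IL6 libraries lay within the PBS range. With IL1b it fell by 6.46 on the log2 scale (SE 0.54; edgeR adjusted p = 7.3e-07), and it passed in all alternatives run, at -5.79 to -8.11. With TNFa the log2 fold change was -1.25 ± 0.34 (SE) at an adjusted p of 0.0504, just short of the threshold; DESeq2 gave 0.0011, and leaving out PBS library 2 gave 0.041, whereas leaving out PBS libraries 1 and 4 gave 0.28. Il17re was lower with IL1b than with TNFa (log2 fold change -5.21 ± 0.56 SE, adjusted p = 2.4e-04) and than with IL6 (-6.46 ± 0.56 SE, adjusted p = 2.0e-06).

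Il23r, the chain that lets these cells sense IL23, had 24.9, 14.6 and 19.7 CPM with IL1b, 19.3, 31.3 and 9.20 CPM with IL6, 20.7, 9.42 and 20.1 CPM with TNFa, and 22.9, 27.8, 11.1, 55.1 and 31.9 CPM with PBS. All 4 groups overlapped, with PBS library 4 highest. The log2 fold changes were -0.56 ± 0.42 with IL1b, -0.54 ± 0.42 with IL6 and -0.80 ± 0.43 with TNFa (SE), and none passed (adjusted p = 0.69, 0.98 and 0.38). Without PBS library 4 the log2 fold change was -0.23 with IL1b and -0.47 with TNFa.

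Ccr6 had 44.6, 9.92 and 13.9 CPM with IL1b, 28.2, 29.1 and 29.1 CPM with IL6, 17.9, 30.7 and 67.8 CPM with TNFa, and 28.6, 20.5, 21.6, 46.8 and 49.7 CPM with PBS. IL1b libraries 2 and 3 lay below every PBS library, and library 1, the one with B cell genes, lay within the PBS range. At its share of B cell markers, B.fo would contribute 2.50 of its 44.6 CPM. No comparison passed: the log2 fold changes were -0.52 ± 0.45 with IL1b, -0.17 ± 0.44 with IL6 and 0.24 ± 0.44 with TNFa (SE; adjusted p = 0.75, 0.999 and 0.86). With IL1b the log2 fold change of Ccr6 was -1.47 without IL1b library 1 (adjusted p = 0.13) and -0.17 without IL1b library 2, and with TNFa it was -0.43 without TNFa library 3.

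Blk had 92.4, 44.0 and 28.4 CPM with IL1b, 104, 109 and 62.0 CPM with IL6, 42.1, 77.9 and 93.1 CPM with TNFa, and 140.4, 50.5, 59.9, 308.5 and 98.6 CPM with PBS. PBS library 4 alone was above 300 CPM, and all 4 groups overlapped. The log2 fold change with IL1b was -1.23 ± 0.48 (SE; adjusted p = 0.26), that with IL6 -0.48 ± 0.46 (0.995) and that with TNFa -0.85 ± 0.47 (0.40). Without PBS libraries 1 and 4 the log2 fold change was -0.33 with IL1b and 0.050 with TNFa, and without PBS library 4 alone it was -0.65 with IL1b. In IL1b library 1, B.fo at the share of B cell markers would contribute 5.03 of the 92.4 CPM. MZB held more Blk with IL1b (673 CPM, against 270 CPM in B.fo), and its contribution was not computed. The 7 B cell markers summed to 178 CPM in that library and to 67.6 to 114.9 CPM in the PBS libraries.

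Maf, the transcription factor required for IL17-producing gamma-delta T cells in mice, had 27.0, 11.1 and 16.9 CPM with IL1b, 41.2, 30.6 and 21.6 CPM with IL6, 19.7, 20.9 and 34.7 CPM with TNFa, and 40.5, 26.6, 20.4, 69.0 and 36.6 CPM with PBS. 2 IL1b libraries lay below the PBS range and 1 within it. The log2 fold changes were -1.04 ± 0.36 with IL1b, -0.27 ± 0.35 with IL6 and -0.59 ± 0.36 with TNFa (SE; adjusted p = 0.18, 0.999 and 0.45). Without PBS libraries 1 and 4 the log2 fold change of Maf was -0.59 with IL1b and -0.13 with TNFa. Maf overlaps Gm15655 on the other strand, and since the strand setting of the counting is not given, reads of the 2 cannot be told apart.

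**Figure D3:**
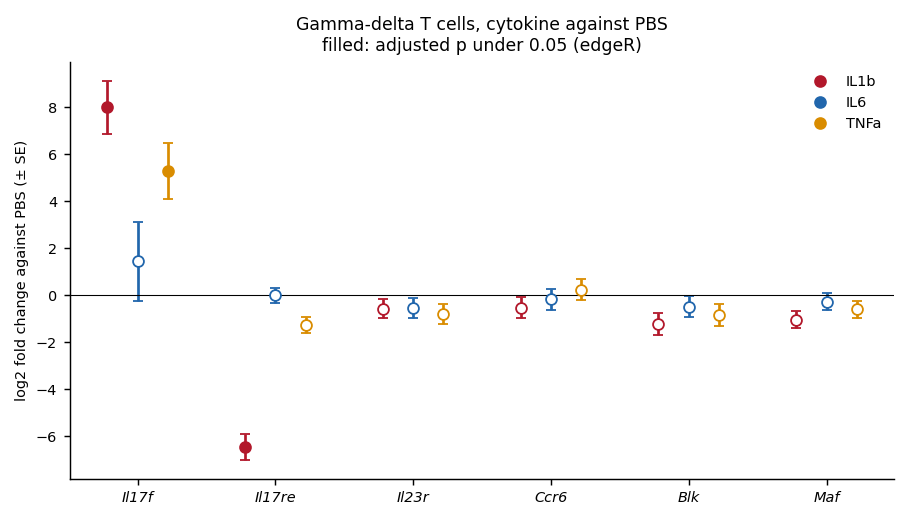
Log2 fold change against PBS (vertical axis, ± SE) of the 6 tested genes in Tgd after IL1b, IL6 and TNFa, filled where the adjusted p was under 0.05. Il17f with IL1b (8.00) and TNFa (5.30) and Il17re with IL1b (-6.46) are filled, and the 3 comparisons share the same 5 PBS libraries. The call of Il17f with TNFa was lost without TNFa library 3.

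Counted over the tested members, which were chosen with earlier results known, IL1b raised 1 of 6, where 1.23% of all genes were raised. It lowered 1 of 6, where 0.918% were lowered. TNFa raised 1 of 6 (1.89% of all genes) and lowered 0 of 6 (1.52%). The member raised by TNFa was Il17f, whose call was lost without TNFa library 3. IL6 moved 0 of 6 in edgeR's test (0.0147% of all genes in either direction), with 0 at an unadjusted p under 0.05 and 0 with DESeq2. Directly compared, 2 of 6 differed between IL1b and IL6 (0.786% of all genes), 1 of 6 between IL1b and TNFa (0.0367%), and 0 of 6 between TNFa and IL6 (1.61%; 2 at an unadjusted p under 0.05 and 1 with DESeq2). The call of Il17f between IL1b and IL6 (log2 6.54 ± 1.29 SE, adjusted p = 0.015) was lost without IL1b library 1 (adjusted p = 0.068), without IL6 library 1 (0.11) or 2 (0.076), and with DESeq2 (0.051).

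Because PBS libraries 1 and 4 stood apart in Trgv6, each other member but Il17a was also set against Il23r in the same library. This measure was chosen after the data were seen. Il23r did not follow Trgv6 in PBS library 1, at 22.9 CPM against 27.8 and 31.9 CPM in PBS libraries 2 and 5. The ratio therefore cannot correct for that departure. Il17re ran at 0.00299, 0.0282 and 0.0820 times Il23r in the IL1b libraries, at 2.80, 1.51 and 4.71 times with IL6, at 0.721, 2.13 and 1.31 times with TNFa, and at 1.31 to 3.16 times with PBS. Il17f ran at 1.11 to 2.61 times Il23r with IL1b and at 0.00134 to 0.0198 times with PBS. The log2 ratio differed between IL1b and PBS by -6.57 for Il17re and 8.29 for Il17f, each with an exact two-sided permutation p of 0.0357, the smallest that 3 against 5 libraries can give, and 0.27 after adjustment over the 15 ratios tested. For Maf the log2 ratio to Il23r was -0.17 ± 0.26 with IL1b and 0.43 ± 0.41 with PBS (SD, n = 3 and 5; exact permutation p = 0.071, adjusted 0.36). The ratios of Blk and Ccr6 overlapped between all cytokine groups and PBS.

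**Figure D4:**
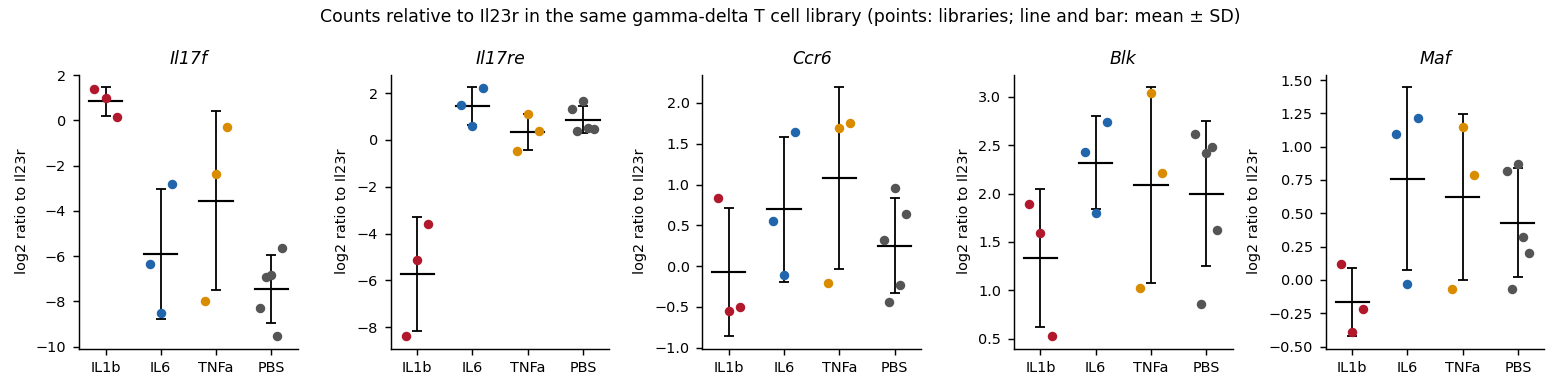
Log2 ratio of each gene's counts to those of Il23r in the same Tgd library (vertical axes), by treatment, with the mean and SD of 3, 3, 3 and 5 libraries. The IL1b libraries stand apart for Il17f (above) and Il17re (below), and overlap the PBS libraries for Ccr6, Blk and Maf.

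Genes around the program were followed through lists of type 17 transcription factors, receptors, products, surface genes and receptor segments. These lists too were chosen with earlier results of these data known, so their counts beside the shares of all genes are description only. Of 22 type 17 transcription factors other than Maf, IL1b raised 7, where 1.23% of all genes were raised, and lowered 5, where 0.918% were lowered, with a median log2 fold change of 0.42 against -0.00 over all genes. Batf, an AP-1 family factor needed for IL17 production in T cells of mice, had 176, 113 and 129 CPM with IL1b and 43.5 to 50.3 CPM with PBS (log2 1.59 ± 0.16 SE, adjusted p = 7.2e-06), and Junb, its partner, rose by 1.29 ± 0.16 (adjusted p = 7.2e-05). Sox13, a lineage factor of IL17-producing gamma-delta T cells, had 16.3, 13.9 and 4.55 CPM with IL1b and 42.8 to 156.9 CPM with PBS, and fell by 2.88 on the log2 scale (SE 0.39, adjusted p = 2.7e-04). Id3, which restrains E proteins, fell by 1.33 (SE 0.18, adjusted p = 2.5e-04).

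TNFa raised 5 of these factors (1.89% of all genes were raised) and lowered 2 (1.52% were lowered), with a median of -0.03 both in the list and over all genes. Junb (1.84 ± 0.16), Relb, a subunit of NF-kB (2.39 ± 0.26), Bhlhe40 (2.00 ± 0.30) and Batf (1.47 ± 0.16; SE, adjusted p = 6.1e-07 to 3.8e-04) rose. Sox13 at -0.85 ± 0.34 (adjusted p = 0.21) did not pass with TNFa. IL6 moved 0 of the 22.

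The list of surface, homing and other genes of IL17-producing gamma-delta T cells held 16 genes besides Ccr6 and Blk. IL1b raised 0 of them, where 1.23% of all genes were raised, and lowered 8, where 0.918% were lowered, with a median log2 fold change of -1.16; without PBS libraries 1 and 4 it lowered 4. The chemokine receptor Ccr2 had 31.0, 34.4 and 32.7 CPM with IL1b and 87.1 to 255.5 CPM with PBS (log2 -2.25 ± 0.34 SE, adjusted p = 8.8e-04; -1.59 ± 0.23 without those 2 libraries). The potassium channel gene Kcnk1 had 2.69, 0 and 0 CPM with IL1b and 8.80 to 52.2 CPM with PBS (-4.57 ± 0.82, adjusted p = 0.0039). Cxcr6 fell by 1.13 (SE 0.21, adjusted p = 0.0057), and the water channel gene Aqp3 fell by 2.82 (SE 0.56, adjusted p = 0.0087), although Aqp3 did not pass without PBS libraries 1 and 4 (adjusted p = 0.068). Cd163l1, singled out after its values were seen, did not pass (-1.21, adjusted p = 0.22). TNFa lowered only Cxcr6 among the 16 (-0.93 ± 0.21, adjusted p = 0.015; 0.085 without PBS libraries 1 and 4, where 0 of the 16 were lowered and 1 was raised), and IL6 moved none of them.

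**Figure D5:**
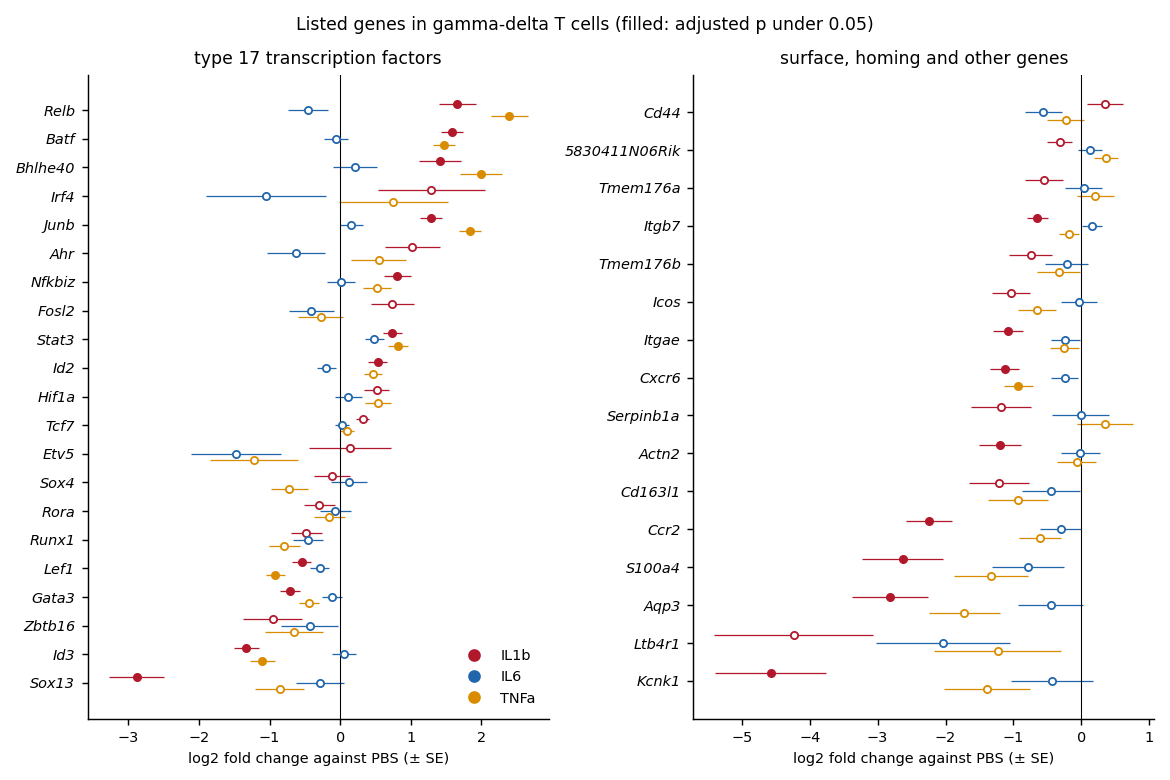
Log2 fold change against PBS (horizontal axes, ± SE) in Tgd for the type 17 transcription factors reported here (left) and 16 surface, homing and other genes (right) after IL1b, IL6 and TNFa, filled where the adjusted p was under 0.05. With IL1b, Relb, Batf, Bhlhe40 and Junb lie to the right, and Sox13 (-2.88) and Kcnk1 (-4.57) lie far to the left.

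For the lists that follow, the shares of all genes were the same: IL1b raised 1.23% and lowered 0.918%. TNFa raised 1.89% and lowered 1.52%, and IL6 moved 0.0147% in either direction. Of 15 cytokine receptor genes that feed the program, other than Il23r, IL1b raised 1. That gene was Il2ra, the high-affinity chain of the IL2 receptor (log2 1.202, SE 0.23, edgeR adjusted p = 0.0074, and 0.063 without IL1b library 1). TNFa raised Il2ra (1.37 ± 0.23) and Il7r (0.59 ± 0.13) and lowered Il2rb (-0.46 ± 0.10; SE, adjusted p = 0.0013 to 0.016). Il1r1, the signalling receptor for IL1, was also picked after its values were seen and did not pass with IL1b (-1.19 ± 0.54, adjusted p = 0.37). Of 8 other IL17 ligands and receptors, 4 could be tested and 0 passed with any cytokine in edgeR's test; Il17rc, which lies 696 bases from Il17re, had a log2 fold change of -2.57 ± 1.04 with IL1b (adjusted p = 0.28). Of 8 other products of type 17 cells, 3 could be tested, and TNFa raised the lymphotoxin genes Ltb (0.78 ± 0.13, adjusted p = 0.0011) and Lta (1.28 ± 0.31, adjusted p = 0.025; SE). Lta did not pass without PBS libraries 1 and 4 (adjusted p = 0.093) or without TNFa library 3 (0.13).

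The last lists describe the cells rather than the program. Beside them, IL1b raised 1.23% of all genes and lowered 0.918% in edgeR's test. TNFa raised 1.89% and lowered 1.52%, and IL6 moved 0.0147% in either direction. Of 15 gamma and delta receptor segments, 0 passed with any of the 3 cytokines in edgeR's test and 1 rose with TNFa in DESeq2, and Trgv6 had a log2 fold change of -2.40 ± 0.74 with IL1b (adjusted p = 0.12), which was -0.47 ± 0.47 without PBS libraries 1 and 4. Of 17 genes of the interferon-gamma program, the alternative fate of gamma-delta T cells, IL1b raised the granzyme gene Gzma (2.21 ± 0.46, adjusted p = 0.012) and the receptor gene Klrc1 (0.74 ± 0.17, adjusted p = 0.023), and lowered Cxcr3 (-0.90 ± 0.18, adjusted p = 0.0078). Without PBS libraries 1 and 4, Klrc1 (adjusted p = 0.11) and Cxcr3 (0.061) did not pass, and Gzma did not pass without IL1b library 2 (0.086) or 3 (0.063). The NK cell marker sum was also highest with IL1b, as given above, and its part in these results was not tested. TNFa raised Xcl1 (1.66 ± 0.25, adjusted p = 4.9e-04) and lowered Cxcr3 (-0.72 ± 0.17, adjusted p = 0.024; SE throughout), and the Cxcr3 call was lost without PBS libraries 1 and 4 (adjusted p = 0.14).

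Whether Tgd answered differently from other lymphocytes was tested as the Tgd response minus the mean response of T.4, T.8, Treg and NK, over 17716 genes. None of the members passed in edgeR's test with IL1b (0.0903% of all genes called), IL6 (0%) or TNFa (0.00564%), with 2, 0 and 1 of them at an unadjusted p under 0.05, and none with DESeq2. The difference for Il17f was 6.09 ± 1.84 (SE) on the log2 scale with IL1b (adjusted p = 0.31) and 5.83 ± 1.86 with TNFa (adjusted p = 0.56), and that for Maf was -1.69 ± 0.59 with IL1b (adjusted p = 0.49). Without the filter on low counts, Il17f (adjusted p = 0.014) and Maf (0.0071) passed with IL1b. For Il17re with IL1b the fit gave no usable error, with no count of it in the 3 NK libraries with IL1b. Outside Tgd, the highest mean of Il17f in any cell type and treatment was 1.24 CPM, in GN with TNFa, and that of Il17re was 3.94 CPM, in T.8 with TNFa.

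In the other cell types, 28 tests of members with IL1b, 31 with IL6 and 31 with TNFa gave 7 calls. Il17a and Il17f passed the filter on low counts in none of these types and were not tested there. Il17re was tested only in Treg, T.8 and pDC, and Il23r only in T.8, without a call. Treg raised Ccr6, to 51.8, 63.1 and 29.9 CPM with IL1b (log2 1.37 ± 0.34 SE, adjusted p = 0.026; 2.19% of genes raised) and to 59.0, 78.3 and 86.4 CPM with TNFa (2.01 ± 0.34, adjusted p = 7.7e-04; 2.81%), against 11.5 to 29.9 CPM with PBS. The IL1b call was lost in 4 of 8 fits that left out 1 library, with an adjusted p of up to 0.20. B.fo lowered Blk with IL1b, to 291, 257 and 261 CPM against 336 to 384 CPM with PBS (-0.41 ± 0.09, adjusted p = 0.036; 0.343% of genes lowered), and that call was lost in 5 of 8 such fits, with an adjusted p of up to 0.22.

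Maf gave the other 4 calls, all in macrophages and monocytes. In MFrp it fell by 1.62 with IL1b (SE 0.29, adjusted p = 0.0017; 4.22% of genes lowered) and by 1.97 with TNFa (SE 0.30, adjusted p = 2.1e-04; 10.1%), with 29.9, 41.5 and 57.2 CPM with IL1b and 46.4, 29.0 and 24.2 CPM with TNFa, against 83.1 to 184.2 CPM with PBS. In MFpc it fell by 1.18 with TNFa (SE 0.16, adjusted p = 3.7e-06), where 26.7% of genes were lowered. In Mo.6C+ it rose with IL1b by 1.66 ± 0.36 (SE; adjusted p = 0.0017), where 19.4% of genes were raised, with 13.4, 53.4 and 50.1 CPM with IL1b against 10.3 to 15.2 CPM with PBS; the first IL1b library lay within the PBS range.

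Among 20033 genes that reached a mean of 1 CPM in at least 1 PBS group, those whose mean levels followed each member most closely over the 14 cell types were found by Pearson's r, as a description. For Il23r they were Lingo4 (0.97), 1700012B07Rik (0.97) and Trgv6 (0.96). For Il17re they were Gm31887 (0.95), Gm12349 (0.94) and Trgv3 (0.94), for Ccr6 Gm15411 (0.92), Angptl1 (0.88) and 4930524O07Rik (0.88), for Blk Pxdc1 (0.91), Bend5 (0.89) and Pou2af1 (0.89), a B cell cofactor, and for Maf Kif14 (0.88), Lmna (0.81) and Kctd12b (0.81). Il17a and Il17f reached 1 CPM in none of the PBS groups. The 14 means share their scaling, and only Lmna and Kctd12b were also among the nearest 3 by Spearman's rho.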

How the data were processed

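The 183 libraries of the cytokine screen were tested. The authors deposited raw counts for each gene symbol; the submitters' processing notes name STAR 2.7.3a, featureCounts and mm10, and no annotation or strand setting was found in the labels. Groups came from the titles; 158 spleen libraries, all 14 of Tgd among them, also carry a peritoneal cavity tissue label. All 19 replicate pairs of Tgd differed by more than sampling noise (chi-square per degree of freedom 9.17 to 19.3).

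Counts were tested with edgeR 4.0.16 in R 4.3.3 (TMM, filterByExpr, glmQLFit, glmQLFTest), with Benjamini-Hochberg adjustment over all genes tested and a threshold of 0.05. The SE is the absolute log2 fold change over the square root of F. Alternatives were DESeq2 1.42.0, RLE size factors, no filter, only the groups compared, a replicate block and leaving out libraries; leaving out PBS libraries 1 and 4 together was chosen after seeing the data. On simulated counts, the fit of IL1b against PBS in Tgd recovered 41.7% of log2 changes of 1 and 76.0% of log2 changes of 2. Tgd against Treg with PBS recovered 33.0% and 58.5%, and the response to IL1b set against lymphocytes 29.6% and 46.4%. Genes that did not pass may therefore have changed. Named genes were the 7 members, the 3 nearest genes of each, and up to 4 genes of smallest adjusted p per list and comparison; others are said to be picked later. The members and lists were chosen with earlier results of these data known. Ratios added 0.5 to counts; exact permutation tests used Python 3.11.15. Intervals and floors cover counting error only. Values of some single genes are not reported here.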

Additional observations from a re-analysis of the deposited data

Results flagged for a closer look

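Maf stood out in libraries outside the screen, given here in CPM of the library total. In Ly6C+ monocytes 8 h after TNFa, the lower of 2 libraries held 61.1 CPM and the higher 74.5 CPM, above both libraries with PBS at 24 h (20.9 and 26.2 CPM), whereas at 2 h after TNFa they held 6.15 and 7.32 CPM. In monocytes of mice given LPS, the lowest of 3 libraries held 29.8 CPM and the highest 43.3 CPM, above the 3 controls at 9.84 to 13.9 CPM. The difference between 2 h and 8 h was not tested. Of the members that averaged 1 CPM or more in Tgd with PBS, none had a library apart from the other 4 by Dixon's test. Il17a, whose PBS counts all came from library 4, and Il17f were below that level and were not tested.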

How the results depend on the processing

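Of 1160 recomputations of 103 values, 1046 kept direction and side of the threshold, 59 lost the threshold, 17 gained it, 22 changed direction and 16 were counts that moved by over 1.5 times; the cause was not tested. Il17f and Il17re with IL1b passed in all alternatives run. The number of members called with TNFa against PBS was 1, and became 2 with RLE size factors, 3 without the filter on low counts, 2 with DESeq2, 0 with the replicate block, 0 without PBS libraries 1 and 4, and 0 to 2 on leaving out single libraries. Without the filter, 4 were called for IL1b against PBS, 2 for IL1b against TNFa, 2 for TNFa against IL6 and 2 for the response to IL1b set against lymphocytes. With DESeq2, 1 was called for IL1b against IL6, 1 for TNFa against IL6 and 2 for Tgd against B.fo with PBS; leaving out single libraries gave 1 to 2 for IL1b against IL6 and 0 to 1 for TNFa against IL6.

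The values that changed direction had all missed the threshold as reported. With the replicate block, Il23r with IL1b gave a log2 fold change of 0.011, and Ccr6, Blk and Maf with IL6 gave 0.35, 0.25 and 0.14. Deviations from the group mean in same-numbered cytokine and PBS libraries of Tgd had correlations of -0.0375 to 0.0863. Whether the same number marks a shared batch was not tested. Without PBS libraries 1 and 4, Blk gave 0.43 and Maf 0.19 with IL6, Blk 0.050 with TNFa, and the Il17f response to IL6 set against lymphocytes -0.69. Without the filter, Il17re with IL6 gave -0.014. Over single libraries left out, values with IL6 ran from -0.57 to 2.78 for Il17f, -0.10 to 0.21 for Il17re, -0.31 to 0.021 for Ccr6, -0.68 to 0.10 for Blk and -0.51 to 0.041 for Maf, Ccr6 with TNFa from -0.43 (without TNFa library 3) to 0.59, and the Il17f response to IL6 set against lymphocytes from -2.07 to 1.33. Il17f with TNFa could not be tested in a fit of those groups alone. Depth limits Il17a, which did not pass the filter on low counts within Tgd.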
